A study of Homo sapiens with 10 samples.

Results

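The HOX cluster genes encode homeodomain transcription factors that give cells their position along the body axis and the limb. They were taken from the count table of RD cells as the 39 rows, of 23228 genes, whose symbol is HOX followed by a cluster letter A to D and a number. There were 11 genes in the HOXA cluster, 10 in HOXB, 9 in HOXC and 9 in HOXD. RD is an established human cell line from a rhabdomyosarcoma, a soft tissue tumour with features of developing skeletal muscle. SCH772984, an inhibitor of the ERK kinases, was applied for 24 h at 300 nM, and the vehicle DMSO for the same time. NRAS siRNA 1 and NRAS siRNA 2, a pair of independent siRNAs against the GTPase NRAS, and a nonspecific siRNA (also labelled scrambled) were transfected at 10 nM with Lipofectamine RNAi MAX and collected at 48 h. All 5 groups were the same line in RPMI medium with serum, with 2 libraries each, so the values describe 1 cell line. The questions set by the design are which HOX transcripts depend on ERK activity, which on NRAS, and whether the responses differ.

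HOX genes lie in each cluster in the order of their numbers, and in the embryo low numbers are used towards the head and high numbers towards the tail and the tips of the limbs. HOX proteins bind DNA together with homeodomain partners of the PBX and MEIS families. Polycomb complexes hold the clusters silent, trithorax and MLL proteins keep them active, and retinoic acid and FGF signals set how far along a cluster transcription reaches.

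Gene counts summed to between 23224063 and 30768970 per library, and the HOX genes together took 0.0626 to 0.0777% of them. The targeted gene NRAS had 52.4 and 52.1 CPM with NRAS siRNA 1 and 51.0 and 48.0 CPM with NRAS siRNA 2, against 219.6 and 272 CPM with the nonspecific siRNA (CPM scales each count to the library's TMM-adjusted total). Of 8 ERK output genes, 8 fell with SCH772984 and 7 with the mean of both NRAS siRNAs. Of 16 muscle markers, 6 reached 1 CPM in DMSO libraries: DES, PAX3, MEF2C, MYH3, FGFR4 and VIM, whereas the myogenic regulator MYOD1 had 0 to 5 counts in a library, MYOG 0 to 3 and MYF5 0 in every library. RD cells are known to express MYOD1, so the name RD is used here as the labels give it. Whether the 2 libraries of a group are from separate cultures is not stated, and p-values therefore describe the variation among libraries, which may be technical. In bulk RNA, fewer cells of a type and less RNA per cell cannot be told apart.

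Promoters are shown for 4 HOXA genes that moved in opposite directions with SCH772984: HOXA2 and HOXA4, which fell, and HOXA10 and HOXA13, which rose. Each sequence holds 250 bases before to 50 bases after a start, from RefSeq on GRCh38.p14, 5′ to 3′ on the gene's strand, with capitals where a searched motif matched on either strand. HOXA10 has 2 listed starts, of which that at the lower coordinate is shown.
HOXA2, chr7:27102634-27102933, minus strand: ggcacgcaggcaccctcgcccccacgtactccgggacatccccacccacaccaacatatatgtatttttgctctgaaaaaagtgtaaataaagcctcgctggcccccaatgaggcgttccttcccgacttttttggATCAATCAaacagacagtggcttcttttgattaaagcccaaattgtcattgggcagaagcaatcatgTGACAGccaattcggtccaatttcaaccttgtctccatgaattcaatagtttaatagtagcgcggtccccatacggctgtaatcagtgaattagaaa
HOXA4, chr7:27130708-27131007, minus strand: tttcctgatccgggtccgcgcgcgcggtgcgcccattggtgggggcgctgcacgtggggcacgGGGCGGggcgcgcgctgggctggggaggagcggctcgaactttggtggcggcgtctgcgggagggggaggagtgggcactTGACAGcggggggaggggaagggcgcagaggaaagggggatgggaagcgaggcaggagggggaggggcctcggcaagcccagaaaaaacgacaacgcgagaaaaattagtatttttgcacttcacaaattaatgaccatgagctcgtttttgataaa
HOXA10, chr7:27174271-27174570, minus strand: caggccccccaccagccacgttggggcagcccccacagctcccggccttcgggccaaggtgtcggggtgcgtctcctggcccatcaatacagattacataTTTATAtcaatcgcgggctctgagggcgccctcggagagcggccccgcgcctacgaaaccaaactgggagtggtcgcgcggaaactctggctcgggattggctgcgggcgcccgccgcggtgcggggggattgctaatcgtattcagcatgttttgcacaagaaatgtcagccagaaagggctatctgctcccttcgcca
HOXA13, chr7:27200042-27200341, minus strand: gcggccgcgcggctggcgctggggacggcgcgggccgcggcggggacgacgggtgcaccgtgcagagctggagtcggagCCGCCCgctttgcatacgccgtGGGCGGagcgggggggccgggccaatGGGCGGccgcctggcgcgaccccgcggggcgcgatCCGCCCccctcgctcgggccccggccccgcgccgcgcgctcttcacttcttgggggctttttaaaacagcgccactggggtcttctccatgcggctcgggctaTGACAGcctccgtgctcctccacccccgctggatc

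The motifs searched on both strands were a TATA box (TATAAA), a GC box (GGGCGG), an ETS core (CCGGAA), an AP-1 site (TGANTCA), a HOX-PBX site (TGATNNAT) and a MEIS site (TGACAG). HOXA13 held 4 GC boxes and 1 MEIS match, HOXA4 1 of each, HOXA2 1 HOX-PBX and 1 MEIS match, and the shown start of HOXA10 1 TATA box. RefSeq entries were found for 20 of the 39 HOX genes, with 27 starts. HOXC4 and HOXC5 share the same window, several starts are of HOXA3, and HOXB1 is the only HOXB gene included. The counts below thus do not describe the whole family. Of these 27, 5 held a TATA box, 13 a GC box, 3 a HOX-PBX match and 4 a MEIS match, where 11.5%, 45.0%, 7.40% and 15.8% of all 35116 promoters did. ETS and AP-1 letters, found in 17.2% and 7.71% of all promoters, were in 0 of the 27 windows, which says only that these letters are not there. The median count of CpG pairs was 22 in HOX promoters and 14 in all promoters. A match is a description of letters and not a shown binding site.

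Per length of transcript, the HOXB genes made up most of the HOX RNA of control cells. Levels were compared as RPKM (TMM-scaled CPM per kilobase of the longest coding transcript in GENCODE v29), and all 39 symbols were matched there. In DMSO libraries HOXB2, a hindbrain patterning gene, averaged 45.8 ± 1.76 RPKM and HOXB9, a gene of the thoracic region, 44.2 ± 1.27 RPKM (SD, n = 2 each). Both also led with the nonspecific siRNA, at 43.0 ± 7.21 RPKM for HOXB2 and 38.5 ± 6.39 RPKM for HOXB9 (SD, n = 2 each). Libraries of this pair overlapped in both control groups, so their order is not set by these data.

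After that pair came a group between 20.9 and 23.3 RPKM in DMSO libraries: HOXB7, HOXB6, HOXB8 and HOXC10. HOXA10, a gene of the lower trunk and the uterus, averaged 17.4 ± 0.325 RPKM, HOXB3 14.6 ± 0.0792 RPKM and HOXA11, a limb gene, 11.4 ± 0.729 RPKM (SD, n = 2 each). HOXC6 at 10.7 RPKM and HOXA7 at 10.4 RPKM followed. HOXD was the lowest cluster, led by HOXD8 at 8.68 ± 0.205 RPKM, HOXD11 at 4.99 ± 0.203 RPKM, HOXD10 at 4.72 ± 0.580 RPKM and HOXD9 at 4.52 ± 0.488 RPKM (SD, n = 2 each). The 5 highest genes held 47.1% of the summed HOX level in DMSO libraries. Of the 38 pairs of neighbours in this order, 23 overlapped in their DMSO libraries.

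Several genes had little or no RNA. HOXB1, an early hindbrain gene, had 1 count in all 10 libraries, and HOXD12 had 0 to 2 counts in a library, under the floor of 3 counts. The digit genes HOXA13 and HOXD13 stood at 0.397 ± 0.0816 and 0.359 ± 0.0911 RPKM in DMSO libraries, and HOXA9, a gene of blood progenitors, at 0.347 ± 0.204 RPKM (SD, n = 2 each). HOXB13 was different from the other genes numbered 13, with 8.09 ± 0.176 RPKM, and HOXC13, a hair follicle gene, had 3.55 ± 0.169 RPKM (SD, n = 2 each). In all, 31 of 39 genes reached 1 RPKM in DMSO libraries and 35 reached 1 CPM. HOXA9 lay below its neighbours HOXA7 and HOXA10 in every control library, and a readthrough entry joining HOXA10 and HOXA9 held 0 counts in all libraries. In GENCODE v29, 19.3% of the exons of HOXA9 lie under a same-strand gene that also overlaps HOXA10. Reads shared with such an entry may have been dropped in counting, so HOXA9 may read too low, which was not tested. HOXC4, HOXC5 and HOXC6 share exons, so reads of this trio may have been split or dropped in counting.

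**Figure D1:**
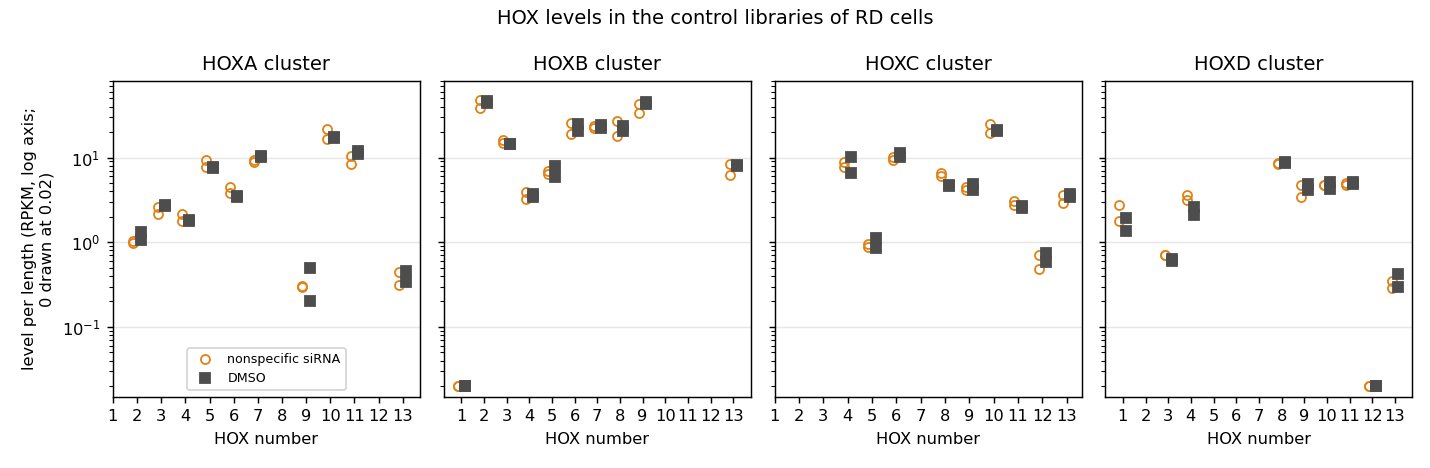
Level per length (RPKM, log axis) of the HOX genes reported here by number, 1 panel per cluster, in the 2 nonspecific siRNA libraries (open circles) and the 2 DMSO libraries (squares). HOXB2 and HOXB9 are highest, and HOXB1 and HOXD12, drawn at 0.02, are at 0 in these 4 libraries.

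With the ERK inhibitor the balance between clusters was different. HOXA held 34.2 ± 1.66% of the summed HOX level per length with SCH772984 and 17.8 ± 0.130% with DMSO, while HOXB held 36.5 ± 2.31% with SCH772984 and 56.9 ± 0.840% with DMSO (SD, n = 2 each). HOXC held 18.2 ± 0.782% with SCH772984 and 16.96 ± 1.19% with DMSO, and HOXD held 11.1 ± 0.135% with SCH772984 and 8.31 ± 0.481% with DMSO (SD, n = 2 each). The summed HOXA level was 109 ± 1.70 RPKM with SCH772984 against 59.7 ± 0.165 RPKM with DMSO, and the summed HOXB level 117 ± 11.2 RPKM with SCH772984 against 191 ± 3.69 RPKM with DMSO (SD, n = 2 each). No library of one group overlapped the other for HOXA, HOXB or HOXD. With 2 libraries a side the smallest p of a two-sided exact permutation test is 0.333, so these shares cannot pass the threshold.

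Single genes were tested in edgeR by quasi-likelihood, with p-values adjusted after Benjamini and Hochberg over 14761 genes, of which 37 were HOX genes (HOXB1 and HOXD12 had too few counts). With SCH772984, 12 HOX genes rose and 10 fell at an adjusted p under 0.05, and 15 did not pass. Over all genes tested 13.2% rose and 14.8% fell. The median log2 fold change of the 37 HOX genes was -0.02 and that of all genes 0.00. HOXA had 6 genes higher and 3 lower of 11, HOXB 0 higher and 6 lower of 9, HOXC 2 higher and 0 lower of 9, and HOXD 4 higher and 1 lower of 8. At an unadjusted p under 0.05 there were 9, 7, 2 and 5 genes in HOXA, HOXB, HOXC and HOXD. Over all genes tested, 5971 of 14761 were under that unadjusted threshold.

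Within HOXA, HOXA2 and HOXA4 fell with the inhibitor. HOXA2, the gene of the second pharyngeal arch, had 1.26 and 1.26 CPM with SCH772984, against 2.42 and 1.93 CPM with DMSO. HOXA4 had 2.02 and 1.67 CPM with SCH772984, against 3.08 and 3.22 CPM with DMSO. Both of these low-numbered genes were lower in both inhibitor libraries than in either DMSO library. HOXA2 fell by 0.78 ± 0.23 on the log2 scale (SE, edgeR adjusted p = 0.029) and HOXA4 by 0.78 ± 0.21 (edgeR adjusted p = 0.022). The calls of HOXA2 and HOXA4 were lost when any 1 of the 4 libraries was left out, with adjusted p up to 0.134 for HOXA2 and 0.119 for HOXA4.

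The middle of HOXA was mixed. HOXA5, a gene of the neck and lung, had 19.7 and 17.8 CPM with SCH772984, against 12.9 and 12.4 CPM with DMSO, a log2 fold change of 0.57 ± 0.16 (SE, edgeR adjusted p = 0.025). HOXA6 had 7.42 and 7.43 CPM with SCH772984, against 3.43 and 3.34 CPM with DMSO, a log2 fold change of 1.13 ± 0.21 (SE, edgeR adjusted p = 0.0034). HOXA7 had 18.0 and 16.4 CPM with SCH772984, against 20.7 and 21.1 CPM with DMSO, and its log2 fold change of -0.28 did not pass (edgeR adjusted p = 0.13). HOXA5 and HOXA6 were thus high in both inhibitor libraries, beside a neighbour that was not. HOXA5 lost its call without any 1 of the 4 libraries, with an adjusted p up to 0.144. Reads of HOXA7 cannot be told apart from those of HOXA-AS3 unless counting used strand, since 74.7% of its exons overlap that antisense gene.

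The far end of HOXA rose as a whole. HOXA10 had 128 and 134 CPM with SCH772984, against 44.9 and 43.7 CPM with DMSO. HOXA11 had 46.9 and 55.6 CPM with SCH772984, against 24.99 and 27.4 CPM with DMSO. HOXA13, the digit gene, had 5.06 and 5.66 CPM with SCH772984, against 2.29 and 1.71 CPM with DMSO. The groups did not overlap for any of them, and HOXA10 became the HOX gene with the highest level per length, 51.6 ± 1.55 RPKM with SCH772984, where it ranked 7 of 39 in DMSO libraries (SD, n = 2). Their log2 fold changes were 1.56 ± 0.18 for HOXA10 (SE, edgeR adjusted p = 0.00026), 0.97 ± 0.16 for HOXA11 (edgeR adjusted p = 0.0018) and 1.43 ± 0.25 for HOXA13 (edgeR adjusted p = 0.0027). HOXA9 had 3.12 and 1.23 CPM with SCH772984, against 1.01 and 0.417 CPM with DMSO, a log2 fold change of 1.62 ± 0.51 (SE, edgeR adjusted p = 0.038). Its call rested on SCH772984 library 1 and DMSO library 2, since it was lost without either (adjusted p up to 0.337).

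In HOXB, 6 of 9 tested genes fell with the inhibitor. HOXB2 had 26.6 and 22.9 CPM with SCH772984, against 69.6 and 73.5 CPM with DMSO. HOXB4, known for the self-renewal of blood stem cells, had 7.07 and 5.32 CPM with SCH772984, against 12.8 and 13.96 CPM with DMSO. HOXB8 had 15.1 and 10.9 CPM with SCH772984, against 43.1 and 37.9 CPM with DMSO. All inhibitor libraries lay below all DMSO libraries for these 3 genes. The log2 fold changes were -1.53 ± 0.13 for HOXB2 (SE, edgeR adjusted p = 3.7e-05), -1.12 ± 0.17 for HOXB4 (edgeR adjusted p = 0.0011) and -1.64 ± 0.23 for HOXB8 (edgeR adjusted p = 0.00080), and HOXB2 ranked 7 of 39 per length with SCH772984, where it was first in DMSO libraries.

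Smaller falls were seen in 3 further genes of the cluster. HOXB3 had 43.8 and 36.0 CPM with SCH772984, against 61.1 and 61.5 CPM with DMSO. HOXB7 had 22.6 and 22.4 CPM with SCH772984, against 30.3 and 33.5 CPM with DMSO. HOXB9 had 76.8 and 74.3 CPM with SCH772984, against 116 and 112 CPM with DMSO. The log2 fold changes of these genes, whose groups did not overlap, were -0.62 ± 0.11 for HOXB3 (SE, edgeR adjusted p = 0.0032), -0.51 ± 0.12 for HOXB7 (edgeR adjusted p = 0.010) and -0.59 ± 0.11 for HOXB9 (edgeR adjusted p = 0.0043). HOXB7 lost its call without either SCH772984 library or without DMSO library 2, with an adjusted p up to 0.102. HOXB6 had 40.9 and 34.7 CPM with SCH772984, against 48.2 and 40.1 CPM with DMSO, and its libraries overlapped. HOXB5 overlapped as well, and HOXB13, the gene of the prostate and the tail end of the cluster, had 40.7 and 34.9 CPM with SCH772984 against 27.6 and 28.5 CPM with DMSO (log2 fold change 0.43, edgeR adjusted p = 0.12).

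In HOXC the genes past the threshold were the pair HOXC11 and HOXC12. HOXC11 had 15.1 and 15.2 CPM with SCH772984, against 8.32 and 8.80 CPM with DMSO, a log2 fold change of 0.82 ± 0.14 (SE, edgeR adjusted p = 0.0025). HOXC12 had 4.72 and 3.75 CPM with SCH772984, against 1.94 and 2.50 CPM with DMSO, a log2 fold change of 0.92 ± 0.24 (SE, edgeR adjusted p = 0.019). Both were higher in each inhibitor library than in each DMSO library, although HOXC12 lost its call without SCH772984 library 1 or DMSO library 1 (adjusted p up to 0.133). HOXC10, a gene of the lumbar region and the highest of its cluster, had 40.2 and 39.3 CPM with SCH772984, against 40.7 and 40.1 CPM with DMSO. HOXC6 had 31.6 and 32.9 CPM with SCH772984, against 30.2 and 32.9 CPM with DMSO. HOXC4 had 10.2 and 11.7 CPM with SCH772984, against 10.96 and 16.8 CPM with DMSO. Libraries of HOXC10, HOXC6 and HOXC4 overlapped. HOXC8 had 7.15 and 8.12 CPM with SCH772984, against 8.80 and 8.88 CPM with DMSO, without overlap, and did not pass (log2 fold change -0.21, edgeR adjusted p = 0.29). Over the 7 HOXC genes that did not pass, log2 fold changes lay between -0.34 and 0.29.

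In HOXD, HOXD3, HOXD4, HOXD10 and HOXD11 rose and HOXD8 fell, while HOXD1 and HOXD13 did not pass (log2 fold changes of -0.47 and -0.33, edgeR adjusted p = 0.22 and 0.48). HOXD3 had 4.64 and 4.13 CPM with SCH772984, against 1.496 and 1.44 CPM with DMSO. HOXD4 had 8.56 and 8.15 CPM with SCH772984, against 3.83 and 3.11 CPM with DMSO. HOXD8 had 11.7 and 11.1 CPM with SCH772984, against 16.4 and 16.9 CPM with DMSO. None of them overlapped between the groups, and HOXD3 and HOXD4 were the only genes numbered 1 to 4, of the 11 tested, that rose. The log2 fold changes were 1.57 ± 0.23 for HOXD3 (SE, edgeR adjusted p = 0.0010), 1.27 ± 0.21 for HOXD4 (edgeR adjusted p = 0.0020) and -0.55 ± 0.13 for HOXD8 (edgeR adjusted p = 0.011). HOXD8 lost its call without either SCH772984 library or without DMSO library 2 (adjusted p up to 0.0779). In GENCODE v29, 88.5% of the exons of HOXD3 and 80.5% of those of HOXD4 lie under 1 further same-strand gene, AC009336.2, so their counts may not be separate.

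HOXD10, a gene of lumbar motor neurons, had 15.6 and 13.8 CPM with SCH772984, against 10.2 and 8.57 CPM with DMSO, a log2 fold change of 0.65 ± 0.16 (SE, edgeR adjusted p = 0.014). HOXD11, a forearm gene, had 12.1 and 11.6 CPM with SCH772984, against 7.88 and 7.44 CPM with DMSO, a log2 fold change of 0.63 ± 0.13 (SE, edgeR adjusted p = 0.0062). Both were higher in every inhibitor library, and the call of HOXD10 was lost without SCH772984 library 1 or DMSO library 2 (adjusted p up to 0.103). HOXD9 had 9.78 and 9.65 CPM with SCH772984, against 9.11 and 7.82 CPM with DMSO (log2 fold change 0.20, edgeR adjusted p = 0.45).

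**Figure D2:**
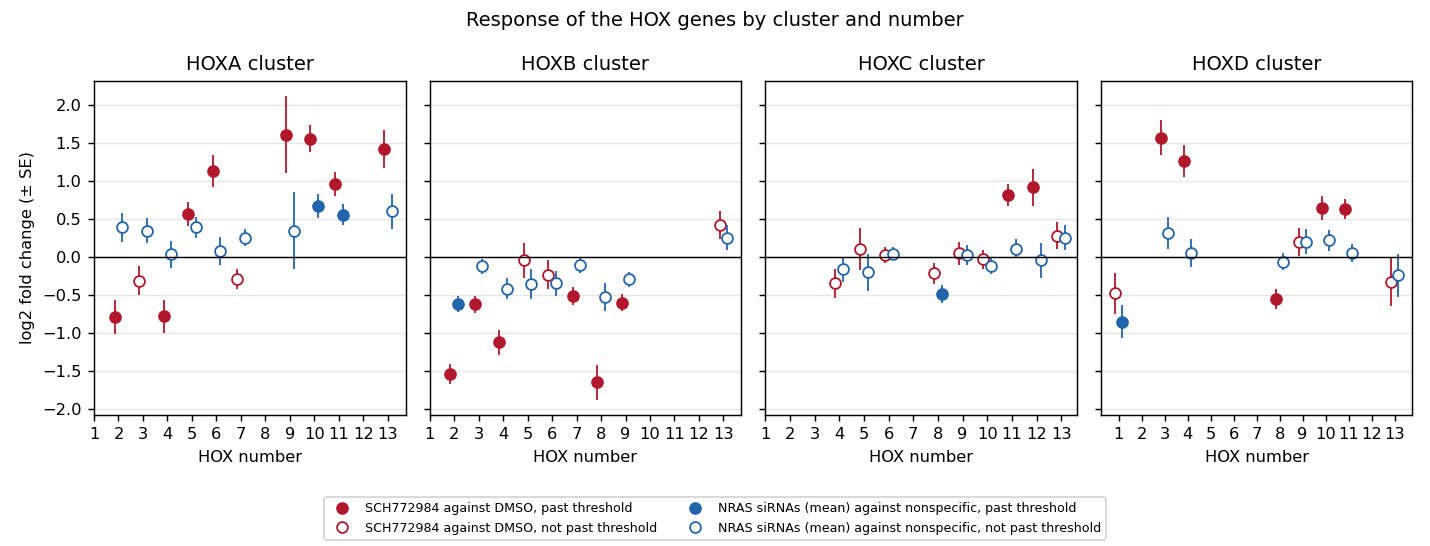
Log2 fold change with its SE for the tested HOX genes reported here by number, 1 panel per cluster, for SCH772984 against DMSO (red) and for the mean of both NRAS siRNAs against the nonspecific siRNA (blue). Filled points passed the threshold. With SCH772984 the called genes of HOXB are all lower, and those of HOXA from HOXA9 on are all higher.

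By number, genes 9 to 13 had 8 higher and 1 lower of 15 with SCH772984, genes 5 to 8 had 2 higher and 3 lower of 11, and genes 1 to 4 had 2 higher and 6 lower of 11. Among all genes tested 13.2% rose and 14.8% fell, so 2 higher of 11 is near that background. Genes 9 to 13 held 54.0 ± 1.90% of the summed level with SCH772984 and 38.3 ± 0.351% with DMSO, and genes 1 to 4 held 15.0 ± 0.722% with SCH772984 and 25.5 ± 1.30% with DMSO (SD, n = 2 each). Spearman's rho between the number and the log2 fold change was 0.50 over the 37 genes, 0.85 over 11 in HOXA, 0.42 over 9 in HOXB, 0.70 over 9 in HOXC and -0.095 over 8 in HOXD. These values describe genes measured in the same libraries, which are not independent, and HOXD showed no such order.

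**Figure D3:**
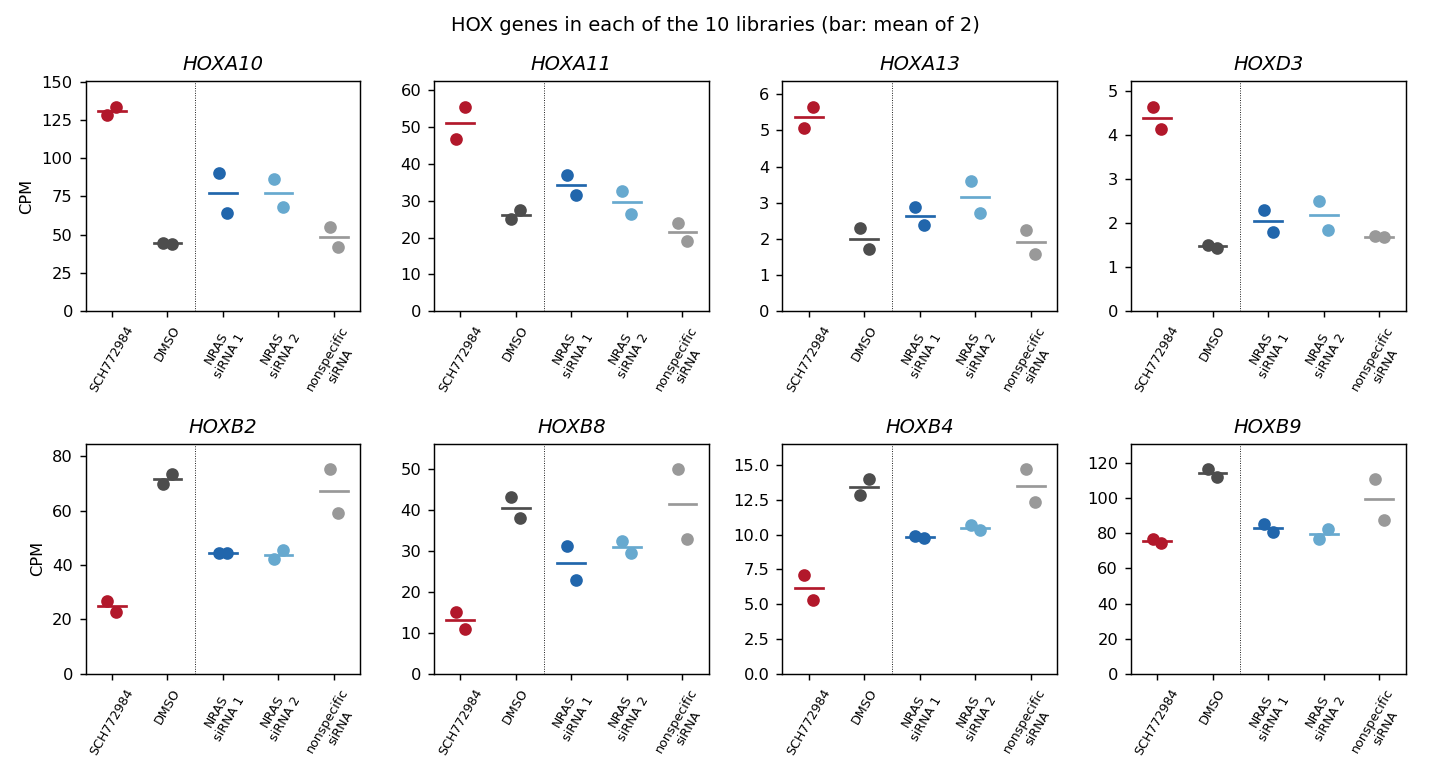
TMM-scaled CPM of 8 HOX genes in each library (points) with the group mean (bar), SCH772984 beside DMSO and both NRAS siRNAs beside the nonspecific siRNA. HOXA10, HOXA11, HOXA13 and HOXD3 are high and HOXB2, HOXB8, HOXB4 and HOXB9 low in both SCH772984 libraries.

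Fewer HOX genes passed the threshold with NRAS knockdown. With the mean of both siRNAs 2 rose and 3 fell of 37, where 2.97% of all genes tested rose and 4.99% fell. The number of calls rested on single libraries: without library 1 of the nonspecific siRNA it was 0, without library 1 of NRAS siRNA 1 or of NRAS siRNA 2 it was 1, and without library 2 of the nonspecific siRNA or of NRAS siRNA 1 it was 3. When the fit held the compared groups alone it was 1. A replicate block raised it, as given in the last section, but the labels do not say that replicate numbers pair libraries.

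HOXA10 had 90.4 and 64.3 CPM with NRAS siRNA 1 and 86.2 and 68.3 CPM with NRAS siRNA 2, against 54.9 and 42.3 CPM with the nonspecific siRNA. HOXA11 had 37.1 and 31.5 CPM with NRAS siRNA 1 and 32.6 and 26.5 CPM with NRAS siRNA 2, against 24.0 and 19.1 CPM with the nonspecific siRNA. All 4 knockdown libraries were above both control libraries for these genes. The log2 fold change of the mean was 0.67 ± 0.16 for HOXA10 (SE, edgeR adjusted p = 0.033) and 0.56 ± 0.14 for HOXA11 (edgeR adjusted p = 0.040). HOXA13 had 2.88 and 2.38 CPM with NRAS siRNA 1 and 3.62 and 2.70 CPM with NRAS siRNA 2, against 2.23 and 1.57 CPM with the nonspecific siRNA, and its log2 fold change of 0.61 did not pass (edgeR adjusted p = 0.13).

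HOXB2 had 44.4 and 44.3 CPM with NRAS siRNA 1 and 42.1 and 45.6 CPM with NRAS siRNA 2, against 75.2 and 59.2 CPM with the nonspecific siRNA. HOXC8, a thoracic gene, had 8.55 and 8.83 CPM with NRAS siRNA 1 and 8.18 and 9.04 CPM with NRAS siRNA 2, against 11.5 and 12.6 CPM with the nonspecific siRNA. HOXD1 had 2.18 and 1.98 CPM with NRAS siRNA 1 and 2.82 and 3.17 CPM with NRAS siRNA 2, against 5.42 and 3.56 CPM with the nonspecific siRNA. The knockdown libraries lay below both controls in each case. HOXB2 fell by 0.61 ± 0.11 on the log2 scale (SE, edgeR adjusted p = 0.012), HOXC8 by 0.48 ± 0.12 (edgeR adjusted p = 0.039) and HOXD1 by 0.84 ± 0.22 (edgeR adjusted p = 0.046). In DMSO libraries HOXC8 had 8.80 and 8.88 CPM and HOXD1 3.78 and 2.66 CPM, and for both genes these libraries overlapped the range of the knockdown libraries.

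HOXB2 was the HOX gene past the threshold for each siRNA tested alone. Its log2 fold change was -0.60 ± 0.13 with NRAS siRNA 1 (SE, edgeR adjusted p = 0.043), where 0.894% of all genes rose and 1.17% fell. It was -0.62 ± 0.13 with NRAS siRNA 2 (SE, edgeR adjusted p = 0.024), where 2.59% rose and 3.84% fell. Both share the nonspecific control libraries. HOXB2 lost its call for NRAS siRNA 1 without either library of that siRNA (adjusted p up to 0.282), for NRAS siRNA 2 without library 1 of that siRNA (adjusted p = 0.235), and for both without library 1 of the nonspecific siRNA (adjusted p = 0.197 and 0.119). Between NRAS siRNA 1 and NRAS siRNA 2, edgeR called 0 HOX genes and DESeq2 0. Over all genes edgeR called 0.23% higher and 0.196% lower. At an unadjusted p under 0.05 there were 881 of all 14761 genes tested and 1 HOX gene of 37. HOXA2 was that gene, chosen after its values were seen, at 2.78 and 3.03 CPM with NRAS siRNA 1 and 2.16 and 1.85 CPM with NRAS siRNA 2.

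By share of the summed level, HOXA held 26.2 ± 1.53% with NRAS siRNA 1 and 25.8 ± 1.99% with NRAS siRNA 2, against 18.2 ± 0.174% with the nonspecific siRNA (SD, n = 2 each). HOXB held 46.3 ± 0.484% with NRAS siRNA 1 and 47.1 ± 1.73% with NRAS siRNA 2, against 55.2 ± 1.49% with the nonspecific siRNA (SD, n = 2 each). Genes 9 to 13 held 43.5 ± 1.07% and 42.3 ± 0.785% with NRAS siRNA 1 and NRAS siRNA 2, against 37.0 ± 0.652% with the nonspecific siRNA (SD, n = 2 each). No knockdown library overlapped a control library in these shares. HOXB4, HOXB8 and HOXB9 were also lower in all 4 knockdown libraries than in both controls, but their log2 fold changes of -0.41, -0.52 and -0.29 did not pass (edgeR adjusted p = 0.096, 0.11 and 0.098).

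The nonspecific siRNA and DMSO groups differ in transfection and in time. Of 37 HOX genes edgeR called 0 and DESeq2 0. Over all genes edgeR called 0.271% higher with the nonspecific siRNA and 0.108% lower. At an unadjusted p under 0.05 there were 2 of the 37 HOX genes and 1713 of all 14761 genes tested. These 2 were HOXC8, with a log2 fold change of 0.44, and HOXD4, with 0.51, named after their values were seen.

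Responses to the siRNAs and to the inhibitor, which share no library, had the same sign for most HOX genes. Of the 12 genes that rose with SCH772984, 11 had a positive log2 fold change with the NRAS siRNAs, and of the 10 that fell, 8 had a negative one. Over all 37 genes 31 had the same sign, with Pearson's r of 0.68 and Spearman's rho of 0.66 across genes measured in the same 10 libraries. The same agreement over all genes was not tested, so it is not shown to be particular to HOX genes. HOXA10, HOXA11 and HOXB2 were called in both. With signs dropped, the size of the siRNA log2 fold change was, in the median of the 22 genes called with SCH772984, 0.253 times that of the inhibitor. These 22 were chosen by their inhibitor response, which makes such a ratio lower. Of the 22, 19 had the same sign in both. The 8 ERK output genes had a median log2 fold change of -1.08 with the mean of both NRAS siRNAs and -4.39 with SCH772984.

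**Figure D4:**
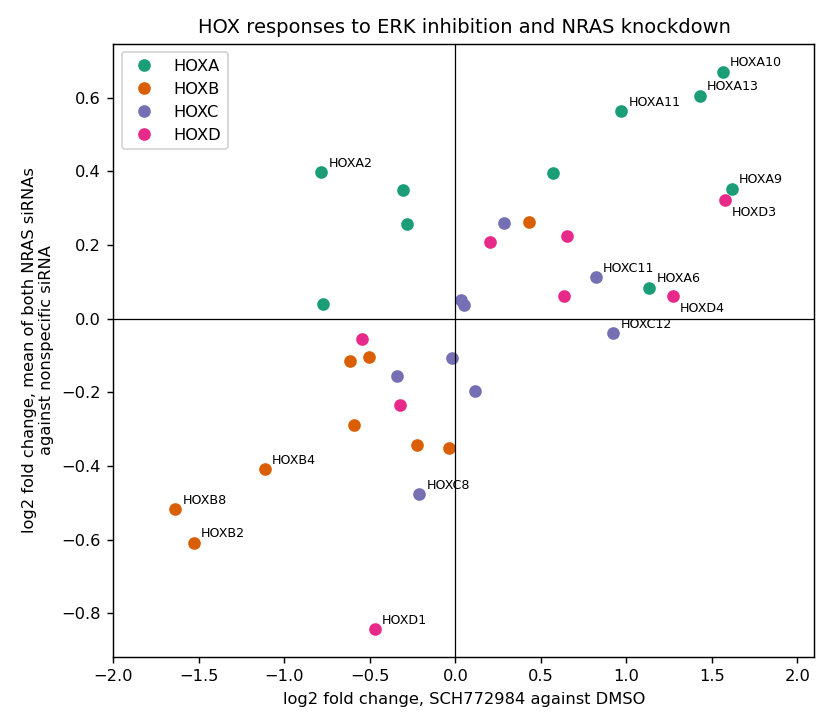
Log2 fold change of the tested HOX genes reported here with SCH772984 against DMSO (x axis) and with the mean of both NRAS siRNAs against the nonspecific siRNA (y axis), coloured by cluster. HOXA10, HOXA13 and HOXA11 lie high in both, and HOXB2 and HOXB8 low in both.

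The difference between the responses passed its own test for 8 HOX genes, 3 higher and 5 lower for the siRNAs minus the inhibitor, where 2.73% and 4.57% of all genes did. It was -1.25 ± 0.31 on the log2 scale for HOXD3 (SE, edgeR adjusted p = 0.040) and -1.21 ± 0.28 for HOXD4 (edgeR adjusted p = 0.031). HOXD3 had 2.29 and 1.80 CPM with NRAS siRNA 1 and 2.51 and 1.85 CPM with NRAS siRNA 2, against 1.70 and 1.68 CPM with the nonspecific siRNA. HOXD4 had 5.21 and 4.22 CPM with NRAS siRNA 1 and 6.50 and 4.66 CPM with NRAS siRNA 2, against 5.25 and 4.59 CPM with the nonspecific siRNA. The rises seen with the inhibitor were thus not matched in size in knockdown libraries, where HOXD4 overlapped its controls. HOXD4 averaged 4.92 CPM with the nonspecific siRNA and 3.47 CPM with DMSO, so unlike controls enter its difference. Counts of HOXD3 and HOXD4 may not be separate, so this pair may not be independent results. HOXB8 had 31.1 and 22.8 CPM with NRAS siRNA 1 and 32.4 and 29.3 CPM with NRAS siRNA 2, against 49.8 and 32.9 CPM with the nonspecific siRNA. The calls of this test depended on single libraries, with 0 to 6 of them when 1 library was left out.

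HOX proteins act with TALE homeodomain cofactors. Of 11 tested, 3 rose and 2 fell with SCH772984, where 13.2% of all genes rose and 14.8% fell. With the mean of both NRAS siRNAs 2 rose and 0 fell, where 2.97% of all genes rose and 4.99% fell. MEIS1, which joins HOX and PBX proteins in complexes, had 205 and 168 CPM with SCH772984, against 98.4 and 75.7 CPM with DMSO. It had 209 and 139 CPM with NRAS siRNA 1 and 220.2 and 159 CPM with NRAS siRNA 2, against 84.6 and 69.9 CPM with the nonspecific siRNA. No treated library overlapped its controls, and the log2 fold changes were 1.10 ± 0.22 with SCH772984 (SE, edgeR adjusted p = 0.0057) and 1.23 ± 0.20 with the NRAS siRNAs (edgeR adjusted p = 0.0099). MEIS3 had 25.4 and 17.2 CPM with SCH772984, against 12.3 and 8.04 CPM with DMSO (log2 fold change 1.07, edgeR adjusted p = 0.013). MEIS2 fell by 0.42 and PKNOX1 by 0.51 on the log2 scale with SCH772984 (edgeR adjusted p = 0.037 and 0.0041). PKNOX2, TGIF1 and TGIF2 did not pass in either comparison.

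**Figure D5:**
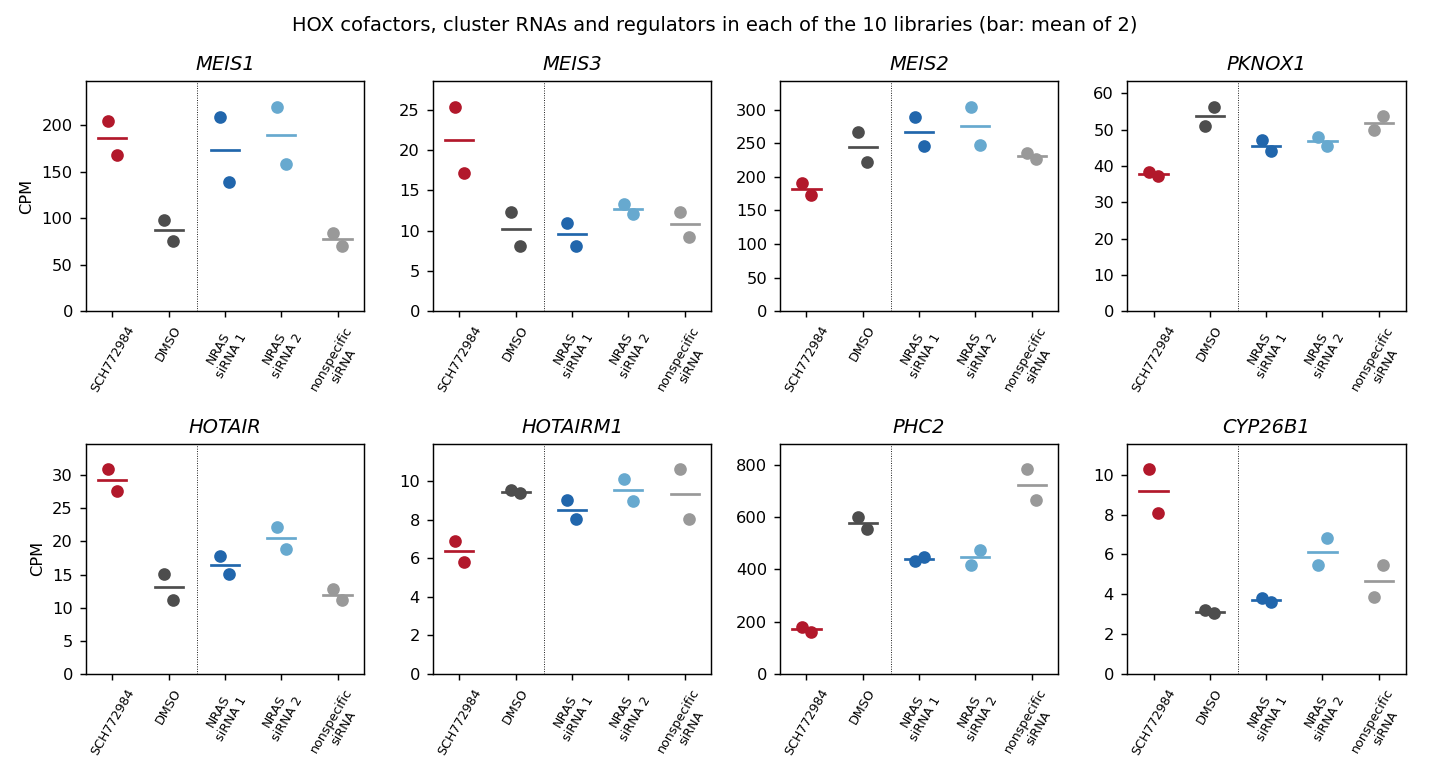
TMM-scaled CPM of HOX cofactors (MEIS1, MEIS3, MEIS2, PKNOX1), cluster RNAs (HOTAIR, HOTAIRM1), the Polycomb gene PHC2 and the retinoic acid enzyme gene CYP26B1 in each library, with the group mean as a bar. MEIS1 is higher in all libraries with SCH772984 or an NRAS siRNA than in its controls, and PHC2 is lower.

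Among regulators of the clusters, 1 of 31 Polycomb genes rose with SCH772984 and 8 fell, with a median log2 fold change of -0.16, where 13.2% of all genes tested rose and 14.8% fell. PHC2, a subunit of Polycomb repressive complex 1, had 178 and 161 CPM with SCH772984, against 601 and 555 CPM with DMSO. It had 431 and 446 CPM with NRAS siRNA 1 and 417 and 474 CPM with NRAS siRNA 2, against 782 and 663 CPM with the nonspecific siRNA. PHC2 was low in every treated library, with log2 fold changes of -1.77 ± 0.11 with SCH772984 (SE, edgeR adjusted p = 5.7e-06) and -0.71 ± 0.09 with the NRAS siRNAs (edgeR adjusted p = 0.0029). It was the only gene of the 31 called with the mean of both NRAS siRNAs, where 2.97% of all genes rose and 4.99% fell. With NRAS siRNA 2 alone 2 of the 31 fell, where 3.84% of all genes did. EZH2, the methyltransferase of the second complex, had 87.1 and 90.3 CPM with SCH772984, against 119 and 135 CPM with DMSO, and fell by 0.52 (edgeR adjusted p = 0.0086). PHF19 fell by 0.65 and PCGF6 by 0.46, while CBX8 rose by 0.57 (edgeR adjusted p = 0.0030, 0.029 and 0.015). Of 22 trithorax and MLL genes, 1 rose and 1 fell with SCH772984, both shares below those of all genes: KDM6B rose by 0.50 and AFF1 fell by 0.85 (edgeR adjusted p = 0.024 and 0.0013). With the mean of both NRAS siRNAs 0 rose and 1 fell, near the 2.97% and 4.99% of all genes. That gene, DOT1L, fell by 0.57 (edgeR adjusted p = 0.026). It had 60.1 and 62.2 CPM with NRAS siRNA 1 and 49.3 and 64.6 CPM with NRAS siRNA 2, against 85.7 and 89.4 CPM with the nonspecific siRNA. In DMSO libraries DOT1L had 65.9 and 64.7 CPM, so its nonspecific siRNA libraries also lay above DMSO. MKI67, a marker of dividing cells, had 472 and 501 CPM with SCH772984, against 822 and 776 CPM with DMSO; its part in these values was not tested.

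Retinoic acid genes were tested as a list of 17, of which 5 rose and 2 fell with SCH772984, where 13.2% of all genes rose and 14.8% fell, so the number that fell is near that background. CYP26B1, an enzyme that breaks down retinoic acid, had 10.3 and 8.08 CPM with SCH772984, against 3.21 and 3.04 CPM with DMSO, a log2 fold change of 1.55 ± 0.22 (SE, edgeR adjusted p = 0.00082). CYP26C1, CRABP1 and RDH10 rose by 1.49, 0.90 and 0.88 (edgeR adjusted p = 0.028, 0.0041 and 0.0046). CYP26C1 had only 6 and 8 counts in the DMSO libraries, so the size of its change is uncertain. ALDH1A2, which makes retinoic acid, fell by 0.96 (edgeR adjusted p = 0.049). With the mean of both NRAS siRNAs 1 of the 17 rose and 0 fell, where 2.97% of all genes rose and 4.99% fell. The gene called was RDH10, which makes retinal from retinol. It had 116 and 89.7 CPM with NRAS siRNA 1 and 114 and 86.2 CPM with NRAS siRNA 2, against 56.1 and 46.9 CPM with the nonspecific siRNA, a log2 fold change of 0.98 ± 0.15 (SE, edgeR adjusted p = 0.0080). In a mixed list of axial regulators and general chromatin genes, 7 were tested, while CDX1, CDX2 and CDX4 had too few counts. Of the 7, 0 rose and 2 fell with SCH772984, where 13.2% of all genes rose and 14.8% fell. Those were EGR2 and RAD21, which fell by 1.34 and 0.42 (edgeR adjusted p = 0.023 and 0.014).

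Cluster RNAs that do not code for protein were counted for 11 of 35 listed symbols, of which 6 were tested. Of these, 2 rose and 1 fell with SCH772984, where 13.2% of all genes rose and 14.8% fell. With the mean of both NRAS siRNAs 1 rose and 0 fell, where 2.97% of all genes rose and 4.99% fell. HOTAIR, transcribed from between HOXC12 and HOXC11, had 30.9 and 27.7 CPM with SCH772984, against 15.1 and 11.2 CPM with DMSO. It had 17.8 and 15.1 CPM with NRAS siRNA 1 and 22.1 and 18.9 CPM with NRAS siRNA 2, against 12.7 and 11.1 CPM with the nonspecific siRNA. HOTAIR was above its controls in all treated libraries and rose by 1.16 ± 0.17 with SCH772984 (SE, edgeR adjusted p = 0.0011) and by 0.62 ± 0.15 with the NRAS siRNAs (edgeR adjusted p = 0.039). HOTAIRM1, in HOXA beside HOXA2 on the other strand, had 6.92 and 5.83 CPM with SCH772984, against 9.55 and 9.41 CPM with DMSO, and fell by 0.57 (edgeR adjusted p = 0.036). With SCH772984, HOTAIR rose as did HOXC12 and HOXC11 beside it, and HOTAIRM1 fell as did HOXA2 beside it. FLJ12825, in HOXC, rose by 1.77 with SCH772984 (edgeR adjusted p = 0.019), from low levels of 10 and 12 counts in the DMSO libraries. Reads of such RNAs and of HOX genes on the opposite strand cannot be told apart unless counting used strand.

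Outside the clusters, 17 flanking genes were tested, of which 2 rose and 2 fell with SCH772984, near the 13.2% and 14.8% of all genes, so these counts are no result about the flanks. SKAP1, next to HOXB, had 0.494 and 0.887 CPM with SCH772984, against 2.55 and 2.54 CPM with DMSO, and fell by 1.86 ± 0.30 (SE, edgeR adjusted p = 0.0017). EVX1 and EVX2, homeobox genes at the ends of HOXA and HOXD, had at most 1 count in a library. Of 24 other homeobox genes tested, 9 rose and 2 fell with SCH772984, where 13.2% of all genes rose and 14.8% fell. With the NRAS siRNAs 4 rose and 4 fell, where 2.97% of all genes rose and 4.99% fell. PRRX1, a limb mesenchyme gene, had 238 and 222 CPM with SCH772984, against 58.4 and 47.2 CPM with DMSO, and rose by 2.12 ± 0.15 (SE, edgeR adjusted p = 1.3e-05). It had 80.6 and 65.4 CPM with NRAS siRNA 1 and 106 and 90.3 CPM with NRAS siRNA 2, against 41.0 and 47.5 CPM with the nonspecific siRNA, and rose by 0.94 ± 0.13 (SE, edgeR adjusted p = 0.0051). MEOX1, a somite gene, rose by 2.07 with SCH772984 and by 1.70 with the NRAS siRNAs (edgeR adjusted p = 0.0056 and 0.029). It had only 7 and 9 counts in the DMSO libraries and 4 and 13 with the nonspecific siRNA, so the size of its change is uncertain. SHOX2, a limb gene, rose by 1.35 with SCH772984 and by 1.46 with the NRAS siRNAs (edgeR adjusted p = 0.024 and 0.032), while MSX1 fell by 0.90 with SCH772984 and by 0.86 with the NRAS siRNAs (edgeR adjusted p = 0.018 and 0.027).

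Markers of other cells moved as well. The summed level of the 16 muscle markers ran over 1902 and 1949 CPM with SCH772984 and 3061 and 3803 CPM with DMSO, and over 1851 to 2149 CPM with the NRAS siRNAs and 2752 and 2835 CPM with the nonspecific siRNA. Most of it was VIM, a mesenchymal filament gene that is not particular to muscle, with 1778 and 1832 CPM with SCH772984 and 2954 and 3710 CPM with DMSO, so the sum follows VIM. Of the 9 markers tested, 2 rose and 2 fell with SCH772984, with a median log2 fold change of 0.01. Over all genes 13.2% rose and 14.8% fell, so these counts are near that background and no result about the list. CDH15, a muscle cadherin, had 6.69 and 3.89 CPM with SCH772984, against 0.440 and 0.455 CPM with DMSO, and the cardiac actin gene ACTC1 had 0.723 and 1.60 CPM with SCH772984, against 0.132 and 0.0759 CPM with DMSO. Both rose (edgeR adjusted p = 0.00042 and 0.0026), while VIM and CHRNA1, a subunit of the muscle acetylcholine receptor, fell (edgeR adjusted p = 0.00049 and 0.0039). ACTC1 had 3 and 2 counts in the DMSO libraries and CHRNA1 1 and 2 counts in the SCH772984 libraries. These are at or under the floor of 3 counts, so the size of their change is uncertain. DES had 34.0 and 30.4 CPM with SCH772984, against 24.6 and 19.7 CPM with DMSO, and did not pass (edgeR adjusted p = 0.052). With the mean of both NRAS siRNAs 0 of the 9 rose and 2 fell, where 2.97% of all genes rose and 4.99% fell. Those that fell were VIM and CHRNA1 (edgeR adjusted p = 0.015 and 0.028). The summed level of 14 markers of blood, endothelium, epithelium and glia ran over 115 and 123 CPM with SCH772984 and 179 and 152 CPM with DMSO, most of it TEK, while PTPRC had 1 to 5 counts and PECAM1 0 to 4 counts in a library. It ran over 151 to 174 CPM with the NRAS siRNAs and 138 and 171 CPM with the nonspecific siRNA. The part of these values in the HOX results was not tested.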

How the data were processed

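Stranded mRNA libraries were made from total RNA, per the labels' protocols, and the authors deposited unnormalised read counts per gene. Of tools, bcl2fastq, TopHat2, SAMtools and HTSeq appear in the submitters' processing notes, and hg19 and GRCh37 appear as builds. How strand was treated in counting, and with which annotation, is not given in the sources used here. Multiply aligned reads, 27.0 to 28.9% of a library, are missing from gene counts. The 10 single files matched the series table exactly, and their 5 summary categories were removed. Replicates differed by more than sampling noise in all 5 groups (chi-square over its degrees of freedom 13.2 to 25.5).

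The main test was edgeR 4.0.16 (R 4.3.3), quasi-likelihood, with TMM scaling and genes kept by filterByExpr with min.count 10. A single fit of the 10 libraries left 5 residual degrees of freedom. P-values were adjusted after Benjamini and Hochberg over 14761 genes, with a threshold of 0.05. Standard errors come from the same fit, which was checked on simulated counts. Lengths are those of GENCODE v29 and promoters those of RefSeq, both on GRCh38, which differs from the build of the counts. They served only for lengths, gene order and sequences. The floor for a gene near 0 is 3 counts and covers counting error only.

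The members, the 11 gene lists and the tests were chosen with earlier results of these data known. Genes were named with values if they were the 4 highest of a cluster per length, passed a test, or were up to 4 called members of a list. Values of some genes that enter the counts, sums and tests are not reported here or drawn in the plots. Alternatives were RLE and upper-quartile scaling, no filter, a replicate block, DESeq2 1.42.0, a fit of the compared groups alone, coding length, CPM without length and leaving out each library.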

Additional observations from a re-analysis of the deposited data

Results flagged for a closer look

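For 8 HOX genes the mean NRAS siRNA response and the SCH772984 response differed by the test of the difference itself (edgeR, quasi-likelihood, p adjusted after Benjamini and Hochberg). The siRNA response minus the inhibitor response, on the log2 scale, was -1.25 for HOXD3, -1.21 for HOXD4, -1.05 for HOXA6, -0.89 for HOXA10 and -0.71 for HOXC11, all of which rose with SCH772984. It was 0.92 for HOXB2, 1.12 for HOXB8 and 1.18 for HOXA2, all of which fell with SCH772984. HOXA6 had 5.14 and 3.42 CPM with NRAS siRNA 1 and 4.69 and 4.23 CPM with NRAS siRNA 2, against 4.47 and 3.79 CPM with the nonspecific siRNA. HOXC11 had 11.2 and 9.33 CPM with NRAS siRNA 1 and 10.5 and 10.2 CPM with NRAS siRNA 2, against 10.1 and 8.96 CPM with the nonspecific siRNA. Adjusted p-values ran from 0.0137 for HOXB2 to 0.0499 for HOXB8 and HOXC11. The siRNA groups were collected at 48 h and the inhibitor groups at 24 h, so the kind of treatment and the time cannot be told apart in this difference. The controls enter it as well, and HOXD4 averaged 4.92 CPM with the nonspecific siRNA and 3.47 CPM with DMSO.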

How the results depend on the processing

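The number of HOX genes called with SCH772984, 22, stayed between 21 and 23 under the settings that kept all libraries and ran from 14 to 19 when 1 library was left out, lowest without SCH772984 library 1. Calls of 14 of the 22 held under each alternative run, among them HOXA6, HOXA10, HOXA11, HOXA13, HOXB2, HOXB8, HOXD3 and HOXD4. For NRAS siRNA 1 the count was 1, against 0 with RLE scaling, upper-quartile scaling or a fit of the compared groups alone, 4 without the filter and with DESeq2, 6 with a replicate block and 0 to 1 with 1 library left out. For NRAS siRNA 2 it was 1, against 2 without the filter and with DESeq2, 8 with a replicate block, 0 with the compared groups alone and 0 to 2 with 1 library left out. For the mean of both siRNAs it was 5, against 10 with a replicate block, 1 with the compared groups alone and 0 to 4 with 1 library left out. For the difference of the responses it was 8, against 3 with upper-quartile scaling, 15 with a replicate block and 0 to 6 with 1 library left out. Labels do not say that replicate numbers pair libraries. With 2 numbers the correlations of same-numbered deviations between groups were 0.024 to 0.562, so counts with the block are given only here. In DMSO libraries HOXA held 16.3% of the summed level with coding length and 18.2% by CPM without length, HOXB 60.1% and 57.8%, and HOXD 6.39% and 7.05%. Of 420 alternatives for 37 named values, 294 kept direction and call, 126 kept direction but missed the threshold, 106 of them with 1 library left out, and 0 reversed. The causes were not tested. Depth was lowest for genes near the floor: HOXB1 and HOXD12 had too few counts to test, and HOXA9 had 11 to 82 counts in a library.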
